A study of Mus musculus with 21 samples.

Results

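The keratins of the resting epidermis between the hair follicles were followed in skin of hairless mice under repeated ultraviolet (UV) irradiation. Among them Krt15 and Krt79 are also keratins of the follicle, and whole skin does not separate these sites. The 9 genes Krt77, Krt1, Krt10, Krt2, Krt5, Krt14, Krt15, Krt79 and Krt80 were chosen by name, and each was read from probe sets that carry its symbol alone. These are 9 of the 18194 genes that a probe set names alone, and they are covered by 11 of the 45101 probe sets on the array, 3 of them for Krt14 and 1 for each other gene, and all 11 passed the filter on low values. RNA of dorsal skin of female Hos:HR-1 albino hairless mice, bought at 6 weeks of age and acclimated for 1 week per the Methods, was hybridized to 21 Affymetrix arrays, 3 in each of 7 groups. Non-irradiated controls were sampled at weeks 1 and 8 (control_week1, control_week8), and irradiated mice after 1, 2, 4, 6 and 8 weeks (UV_week1 to UV_week8). Arrays are called by the numbers in their labels. Mice were irradiated 3 times a week, at 1 MED (minimal erythema dose, 100 mJ per square centimetre) in the first week, 2 MED in the second and 4 MED in the groups of weeks 4, 6 and 8. All groups share the strain, whose coat is lost early in life, and dorsal skin was extracted whole, without a separation of its cell types. Whole skin gives 1 value for all its cells, so that fewer cells of a type and less RNA per cell cannot be told apart.

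Keratins form the intermediate filaments of epithelial cells and act in pairs of a type I and a type II chain. In mouse epidermis the basal layer makes Krt5 (type II) with Krt14 (type I), and Krt15 is a further type I keratin of basal cells and of the follicle bulge. As cells leave the basal layer they switch to Krt1 (type II) with Krt10 (type I). Krt2, a type II keratin, is added in the upper suprabasal layers, mainly of ear, tail and paw skin in the mouse. Krt77 is a type II keratin of suprabasal mouse epidermis and the nearest relative of Krt1. Krt79, of type II, marks the cells that line the upper follicle and the gland duct, and Krt80, also of type II, appears in late differentiating cells next to desmosomes.

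The array medians lay between 30.1 and 33.3 intensity units, and replicate arrays correlated at 0.962 to 0.996 over all probe sets. The skin label was checked against 8 measured keratinocyte markers, whose summed level on the log2 scale lay between 14.2 and 15.2 in all groups. At UV_week8 1 of 8 was lower against control_week1, beside 6.73% of all probe sets, and 0 of 8 against control_week8, beside 4.3%. The ratio of the 3′ to the 5′ probe sets of beta-actin, which rises when RNA is degraded, exceeded 4 on the log2 scale in 8 of the 21 arrays, and these belong to control_week1 (1 array), UV_week1 (2), UV_week4 (1), UV_week6 (2) and UV_week8 (2). Its relation with each keratin is given below the comparisons.

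The promoters of the keratins were read from RefSeq (GRCm38.p6), where 6 of the 9 genes matched. Entries of Krt1, Krt15 and Krt80 were not used here. The 100 bases before the start of transcription of the promoter entry are shown for 3 genes, each 5′ to 3′ on its coding strand. These are Krt77, whose level fell as described next, Krt10, which passed in no comparison, and Krt2, the neighbour of Krt1 and Krt77. Matches to TATATA or TATAAA are in capitals.
Krt77 (chr15:101869706-101869805, minus strand): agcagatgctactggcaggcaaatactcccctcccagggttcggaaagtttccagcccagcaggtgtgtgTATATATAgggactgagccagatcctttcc
Krt10 (chr11:99389365-99389464, minus strand): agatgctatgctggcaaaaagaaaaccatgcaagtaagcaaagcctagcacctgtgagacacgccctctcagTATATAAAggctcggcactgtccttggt
Krt2 (chr15:101818170-101818269, minus strand): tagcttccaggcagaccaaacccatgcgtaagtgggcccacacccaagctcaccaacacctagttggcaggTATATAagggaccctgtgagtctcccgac
TATATA, the core of a TATA box, was found close to the start of the entry in these 3 and not in the other 3 (Krt5, Krt14 and Krt79). Of all 32851 promoters 2.19% hold it on either strand in a window of this length. The windows of Krt10, Krt2 and Krt14 lie inside the annotated spans of these genes. For Krt14 the window is 100206031 to 100206130 and the span 100203162 to 100207510. These windows thus do not precede the outer 5′ end of the gene, and other starts were not read. The letters TGANTCA, recognised by AP-1 factors, were found in none of the 6 keratin promoters over the 250 bases before the start, where 6.75% of all promoters hold them. CACCC, recognised by Klf factors, was found in 5 of the 6, all but Krt77, and in 52.0% of all promoters. A match of letters is a description and not a binding site.

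The keratin that changed most was Krt77. Its log2 intensity was 12.09, 12.94 and 12.66 on the 3 arrays of control_week1 and 13.14, 13.22 and 12.92 on those of control_week8. It was 11.25, 10.95 and 9.24 at UV_week1, 9.66, 8.84 and 6.38 at UV_week2, and 9.74, 7.74 and 9.63 at UV_week4. At UV_week6 it was 5.54, 6.28 and 7.13, and at UV_week8 7.72, 5.87 and 6.10. All 15 irradiated arrays lay below all 6 control arrays, which held for 0.417% of the 40540 probe sets tested and for 1 of the 9 keratins.

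In the fit across all probe sets, Krt77 was 4.23-fold lower at UV_week1 than at control_week1, which did not pass the threshold of an adjusted p of 0.05 (log2 fold change −2.08, SE 0.73, adjusted p = 0.172). It fell by 4.27 at UV_week2 (SE 0.73, adjusted p = 0.0352) and by 3.53 at UV_week4 (adjusted p = 0.0183). It fell by 6.24 at UV_week6, a 75.8-fold difference (adjusted p = 0.00015). Against the controls of the same week, Krt77 was 92.5-fold lower at UV_week8 (log2 fold change −6.53, 95% interval −8.06 to −5.01, adjusted p = 0.000167). At UV_week6, and at UV_week8 against either control group, no other of the 40540 probe sets had a lower log2 fold change.

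The call at UV_week2 was lost when any 1 of the control_week1 arrays, array 224 or array 225 was left out, with log2 fold changes of −4.54 to −3.31 and adjusted p of 0.0583 to 0.222, and also when only the compared groups were fitted (adjusted p = 0.238). The call at UV_week4 was lost without array 13 (−3.34, adjusted p = 0.0972), array 16 (−3.48, 0.0596) or array 333 (−2.88, 0.138).

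The order of the group means of Krt77 was control_week8 (13.1 ± 0.16, SD, n = 3), control_week1 (12.6 ± 0.43), UV_week1 (10.5 ± 1.08), UV_week4 (9.04 ± 1.12), UV_week2 (8.29 ± 1.71), UV_week8 (6.56 ± 1.01) and UV_week6 (6.32 ± 0.80). Neighbours in that order were not separated by the fit where they were tested. The controls differed by 0.53 (95% interval −0.99 to 2.06, adjusted p = 1), UV_week4 from UV_week2 by 0.74 (95% interval −0.78 to 2.27, adjusted p = 0.872) and UV_week8 from UV_week6 by 0.25 (95% interval −1.28 to 1.77, adjusted p = 1). The step from UV_week4 to UV_week6 was −2.72, the lowest log2 fold change of all probe sets in that step, and did not pass (adjusted p = 0.216). The UV effect of week 8 minus that of week 1, each against the control of its own week, was −4.45 (SE 1.03), with an adjusted p of 0.572 over all probe sets.

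**Figure D1:**
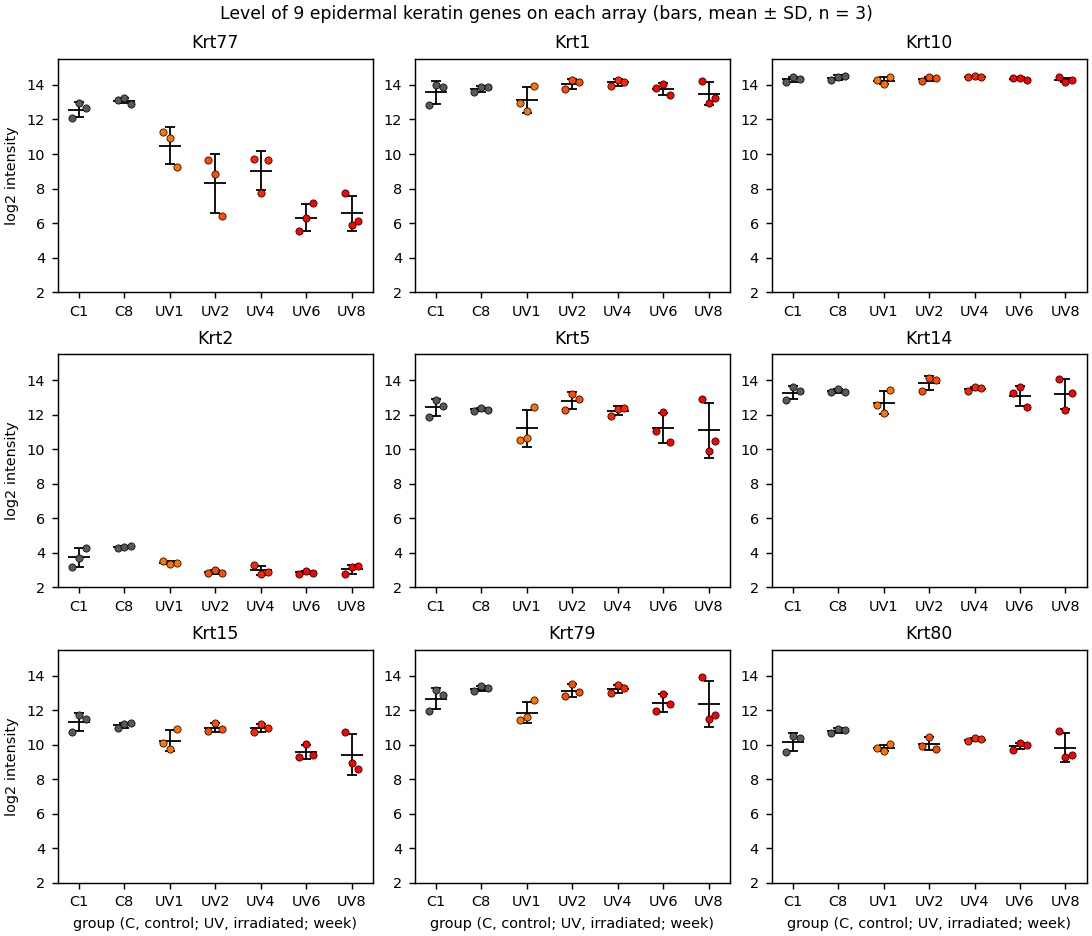
Log2 intensity of the 9 keratins on each of the 21 arrays, by group on the x axis (C1 and C8, controls of weeks 1 and 8; UV1 to UV8, irradiated mice by week), with points for arrays and bars for the mean ± SD of 3 arrays. Krt77 lies between 12.09 and 13.22 in the controls and between 5.54 and 7.72 at UV weeks 6 and 8, while Krt10 stays between 14.03 and 14.53 throughout.

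Krt1 and Krt10, the pair that marks the step out of the basal layer, did not follow Krt77. Krt1 was 12.82 to 14.01 in the 6 control arrays (median 13.9) and 12.48 to 14.30 in the 15 irradiated arrays (median 13.9). Krt10 was 14.18 to 14.53 in the controls and 14.03 to 14.51 under UV. For both genes the ranges of irradiated and control arrays overlapped. Of the 15 irradiated arrays 6 lay above the highest control array for Krt1 and 1 below the lowest, against 0 and 1 for Krt10. Krt1 was at 0.50 at UV_week2 and 0.58 at UV_week4 against control_week1, and neither passed. At UV_week8 against control_week1 the difference was −0.08 for Krt1 (95% interval −0.83 to 0.68, adjusted p = 0.901) and −0.02 for Krt10 (−0.28 to 0.23, adjusted p = 0.905). Krt10 lay within 0.39 to 1.07 log2 units of the brightest probe set of its array, and its range over all 21 arrays was 0.50. Krt1 lay within 0.66 to 2.62 log2 units of it. How far values this near the top of the scale still follow the amount of RNA was not tested.

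Krt2 was measured near the low end of the scale. It was 3.17, 3.72 and 4.31 at control_week1 and 4.27, 4.31 and 4.40 at control_week8. It was 3.53, 3.37 and 3.40 at UV_week1 and lay between 2.76 and 3.27 on the 12 arrays of the later UV groups. Of the irradiated arrays 14 of 15 were below the 20th percentile of their own array, against 1 of 6 controls, and 9 of the 15 lay below the lowest control array. Krt2 fell by 0.87 at UV_week6 (SE 0.21, adjusted p = 0.0143), by 0.67 at UV_week8 (adjusted p = 0.0406) and by 1.27 at UV_week8 against control_week8 (adjusted p = 0.0032). With 16 intensity units added before the logarithm the difference at UV_week8 was −0.28 (adjusted p = 0.0562).

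The basal pair Krt5 and Krt14 passed the test in no comparison. Krt5 was 11.90, 12.85 and 12.54 at control_week1, and 12.24, 12.42 and 12.29 at control_week8. It was 10.55, 10.66 and 12.45 at UV_week1, 12.30, 13.23 and 12.93 at UV_week2, and 11.93, 12.36 and 12.40 at UV_week4. The late groups were spread, with 11.06, 12.18 and 10.43 at UV_week6 and 12.91, 9.93 and 10.46 at UV_week8. The single UV_week8 array that lay above every control array, 551, was also the one of the 3 with a beta-actin ratio below 4 (2.77, against 5.14 and 4.90). The difference of Krt5 at UV_week8 was −1.33 (SE 0.61, adjusted p = 0.145), and without array 551 it was −2.23 (adjusted p = 0.00257). With the beta-actin ratio as a covariate it was −0.56 (adjusted p = 0.258), with that of Gapdh −1.22 (adjusted p = 0.0346), and without the 8 arrays of high ratio, which leaves array 551 alone at UV_week8, it was 0.22 (adjusted p = 0.81).

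The 3 probe sets of Krt14 differed in level. The brightest was 12.86 to 13.60 in the controls and 12.13 to 14.14 under UV, the second 11.15 to 12.78 and 10.33 to 13.29, and the dimmest 6.54 to 8.00 and 5.59 to 8.15. Their log2 fold changes at UV_week8 against control_week1 were −0.07, −0.42 and −0.70, with adjusted p of 0.91, 0.662 and 0.262. None of the 3 passed in any comparison.

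Krt15, the other basal type I keratin, was lower late in the course. It was 10.76, 11.75 and 11.50 at control_week1 and 10.96, 11.20 and 11.24 at control_week8. It was 9.73 to 10.88 at UV_week1, 10.80 to 11.28 at UV_week2 and 10.72 to 11.18 at UV_week4. It was 9.30, 10.06 and 9.38 at UV_week6, all below the controls, and 10.76, 8.91 and 8.61 at UV_week8, where 1 array overlapped them. Krt15 fell by 1.75 at UV_week6 (SE 0.41, adjusted p = 0.0144) and by 1.91 at UV_week8 (adjusted p = 0.00859), a 3.75-fold difference, and by 1.71 against control_week8 (adjusted p = 0.0242). Without the 8 arrays of high beta-actin ratio, which leaves array 551 alone at UV_week8 and assumes that it varies like the other groups, the difference at UV_week8 was −0.86 (adjusted p = 0.0628) and −0.37 against control_week8 (adjusted p = 0.426). At UV_week6, where array 443 alone remained, it was −1.56 (adjusted p = 0.00471).

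Several calls of Krt15 and Krt2 rested on single arrays, while that of Krt2 at UV_week8 against control_week8 was kept in all 6 fits without 1 array (−1.36 to −1.12). The latter was lost when only the compared groups were fitted (adjusted p = 0.0642). In that setting Krt2 also lost its calls against control_week1 at UV_week6 (0.0897) and UV_week8 (0.312). Krt15 then lost those at UV_week8 against control_week1 (0.21) and control_week8 (0.197) and kept that at UV_week6 (0.0292). Krt15 at UV_week8 lost its call without array 13 (−1.70, adjusted p = 0.0584), 552 (−1.65, 0.0504) or 555 (0.0645), and at UV_week6 without array 13 (−1.55, 0.0857) or 445 (−1.65, 0.0554). Against control_week8 it lost the call without any 1 of 5 of the 6 arrays (−1.79 to −1.30, adjusted p of 0.0577 to 0.143), array 551 being the exception. Krt2 lost its call at UV_week6 without array 13 (−0.88, 0.062) or 16 (−0.58, 0.0633), and at UV_week8 against control_week1 without any array of either group except array 12.

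Krt79 and Krt80, the keratins of the follicle opening and of late differentiation, passed in no comparison. Krt79 was 11.97 to 13.38 in the controls and 11.43 to 13.90 under UV, and Krt80 was 9.56 to 10.91 and 9.28 to 10.78. Their differences at UV_week8 against control_week1 were −0.29 (SE 0.47, adjusted p = 0.686) and −0.32 (SE 0.30, adjusted p = 0.474). The nearest to the threshold was Krt80 at UV_week8 against control_week8 (−0.99, 95% interval −1.63 to −0.35, adjusted p = 0.0555), where the 3 irradiated arrays (10.78, 9.28 and 9.41) overlapped the controls (10.67 to 10.91). Without array 551 both passed at UV_week8 against control_week1, at −1.06 (adjusted p = 0.0252) for Krt79 and −0.80 (adjusted p = 0.013) for Krt80, and this leaves the 2 arrays of high beta-actin ratio. Without the 8 arrays of high ratio, which leaves array 551 alone in that group, the differences were 0.89 (adjusted p = 0.102) and 0.34 (adjusted p = 0.55).

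**Figure D2:**
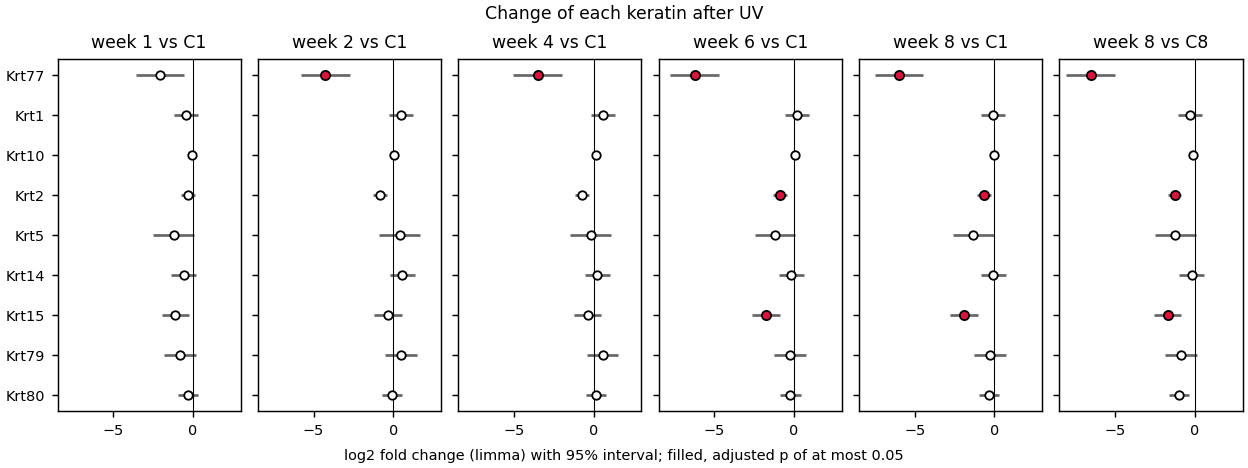
Log2 fold change of each keratin (x axis, log2 units, point and 95% interval from the fit to 21 arrays) at 5 UV weeks against control_week1 and at UV_week8 against control_week8. Filled points passed an adjusted p of 0.05, and these are Krt77 from week 2 on with Krt2 and Krt15 at weeks 6 and 8.

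Counted over the 9 genes, none passed in either direction at UV_week1, where 0.0123% of all probe sets were lower and 0% higher. In this limma fit 2 of 9 were lower there at an unadjusted p below 0.05, beside 9.38% of all probe sets, and none was higher, beside 9.88%. At UV_week2 1 of 9 was lower, beside 0.0296% of all probe sets lower and 0.0321% higher, and at UV_week4 1 of 9, beside 0.772% lower and 0.36% higher. At UV_week6 3 of 9 were lower, beside 6.3% of all probe sets lower and 5.43% higher. At UV_week8 3 of 9 were lower, beside 6.73% lower and 5.39% higher, and against control_week8 3 of 9, beside 4.3% lower and 2.56% higher. These comparisons share the control_week1 arrays, or the UV_week8 arrays in the case of the last 2. None of the 9 was higher in any of them. Over the mean of all UV groups against both controls 3 of 9 were lower, beside 8.57% lower and 6.3% higher, with Krt77 at −4.69 (SE 0.43, adjusted p = 6.03e-06). With a 2-fold minimum 1 of 9 was, Krt77, beside 0.715%. The 3 lower genes at UV_week6, at UV_week8 against either control and over the mean were Krt77, Krt15 and Krt2. Krt2 was below the 20th percentile on 14 of 15 irradiated arrays and on 1 of 6 control arrays. It thus passed the filter mostly through the control arrays, where it is higher, and its calls are no support for these counts. From UV_week1 to UV_week2 none of the 9 passed, beside 0.00247% lower and 0.00987% higher. Between the 2 control groups none of the 9 passed, beside 0.0296% lower and 0.0296% higher, and Krt80 at 0.67 (adjusted p = 0.954) and Krt2 at 0.59 (adjusted p = 0.637) were the 2 of 9 at an unadjusted p below 0.05, both higher, beside 2.39% of all probe sets higher. The median log2 fold change of the 9 was −0.32 at UV_week8, beside 0.09 over all probe sets.

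To compare keratins with each other, the difference between 2 probe sets was taken within each array, so that a factor that scales a whole array cancels. A factor that acts unequally on the 2 does not cancel. Within groups the log2 slope on the beta-actin ratio was −0.729 for Krt5, −0.452 for Krt15, −0.419 for Krt14 and −0.412 for Krt1. It was −0.103 for Krt77 and −0.0862 for Krt10, so that some of these differences can move with the ratio. The 16 differences (8 pairs, 2 stretches of the time course) were tested between irradiated and control arrays by two-sided exact permutation tests, with p-values adjusted over the 16. Krt77 minus Krt1 was −1.22 to −0.43 in the controls and −8.26 to −6.28 at UV weeks 6 and 8, a shift of −6.34 (6 against 6 arrays, exact adjusted p = 0.00495). At UV weeks 1, 2 and 4 the shift was −3.67 (9 against 6 arrays, exact adjusted p = 0.00495), and the groups did not overlap at either stretch. Krt1 minus Krt10, the differentiation pair, shifted by −0.0017 at weeks 6 and 8 (exact adjusted p = 0.996) and by 0.13 at the early weeks (exact adjusted p = 0.663). Both genes are read near the top of the scale, with the limit given above.

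Among the basal keratins Krt5 and Krt15 were set against Krt14, and Krt15 was not set against Krt5. Krt15 minus Krt14 shifted by −0.53 at UV weeks 1, 2 and 4 and by −1.55 at weeks 6 and 8 (exact adjusted p = 0.00495 for both), with no overlap between irradiated arrays (−4.65 to −2.40) and controls (−2.36 to −1.85). Krt5 minus Krt14 shifted by −0.30 at the early weeks (exact adjusted p = 0.0647) and by −1.03 at weeks 6 and 8 (exact adjusted p = 0.00495), where the irradiated arrays ranged from −2.80 to −1.16 and the controls from −1.10 to −0.75. These values read Krt14 at its brightest probe set. At the second brightest, added after the values were seen, the late shift was −0.69 for Krt5 minus Krt14 (exact adjusted p = 0.00693). It was −1.21 for Krt15 minus Krt14 (exact adjusted p = 0.0173), where late irradiated arrays (−2.82 to −1.16) overlapped controls (−1.25 to −0.40). At the dimmest the late shifts were −0.54 (exact adjusted p = 0.151) and −1.06 (exact adjusted p = 0.00693). Krt79 minus Krt80 shifted by 0.05 at the late weeks (exact adjusted p = 0.82). Krt2 minus Krt1 shifted by −1.02 at the late weeks (exact adjusted p = 0.0231), and with the offset of 16 by −0.41 (exact adjusted p = 0.188). Krt2 passed the filter mostly through the control arrays and lay near the low end of the scale. This shift is thus given as a description and is no support. The mean of the 4 suprabasal keratins, with Krt2 among them, minus that of the 3 basal ones shifted by −0.85 (exact adjusted p = 0.0173). Without Krt77 in that mean, a setting added after the values were seen, it shifted by 0.65 (exact adjusted p = 0.0787). The direction of the shift thus came from Krt77. Without the 8 arrays of high beta-actin ratio, which leaves 2 late arrays and no late shift past the threshold, the late shift of Krt5 minus Krt14 was −0.32, and that of Krt15 minus Krt14 was −1.31.

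**Figure D3:**
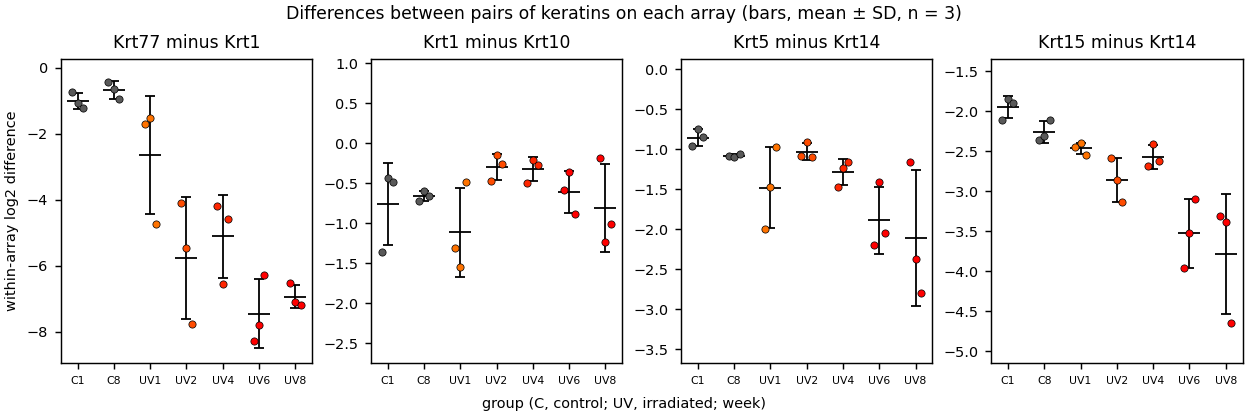
Difference in log2 intensity between 2 keratins on the same array (y axis, log2 units), by group, with points for arrays and bars for the mean ± SD of 3 arrays. Krt77 minus Krt1 drops from between −1.22 and −0.43 in the controls to between −8.26 and −6.28 at UV weeks 6 and 8, Krt1 minus Krt10 stays between −1.55 and −0.15, and the y axes of the panels cover different ranges.

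The spread of the keratins within groups moved with the 3′ to 5′ ratio of beta-actin. After removal of the group means, over 21 arrays and 9 relations, the correlation was strongest for Krt5 (Pearson r = −0.882, Spearman rho = −0.866, permutation adjusted p = 0.00594 for r and 0.00806 for rho). For Krt1, Krt10, Krt14, Krt15, Krt79 and Krt80 r was between −0.854 and −0.695 and rho between −0.836 and −0.721, with permutation adjusted p of at most 0.0096 for r and 0.0103 for rho. For Krt77 r was −0.103 and rho −0.0896 (permutation adjusted p = 0.674 and 0.742), and for Krt2 r was −0.26 and rho −0.178 (permutation adjusted p = 0.53 and 0.604). Leaving out the 2 arrays farthest from the median ratio, 552 and 445, gave r between −0.885 and −0.656 for the 7 genes and −0.178 for Krt77. With the ratio as a covariate the log2 fold change at UV_week8 was −5.89 for Krt77 (adjusted p = 0.000117), −1.43 for Krt15 (adjusted p = 0.00225) and −0.60 for Krt2 (adjusted p = 0.0717). For Krt5 the values with the covariate are given above, and at UV_week8 against control_week1 they were 0.37 for Krt14 (adjusted p = 0.337), 0.27 for Krt79 (adjusted p = 0.589) and −0.01 for Krt80 (adjusted p = 0.984). Against control_week8 they were 0.21 (adjusted p = 0.625), −0.38 (adjusted p = 0.44) and −0.71 (adjusted p = 0.0578). With the Gapdh ratio as covariate Krt5 passed against control_week8 (−1.51, adjusted p = 0.0111). So did Krt79 (−1.10, adjusted p = 0.0222) and Krt80 (−1.11, adjusted p = 0.00446). Over the mean of UV groups against both controls Krt5 (−0.86, adjusted p = 0.0105) and Krt80 (−0.58, adjusted p = 0.00654) passed in that setting.

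**Figure D4:**
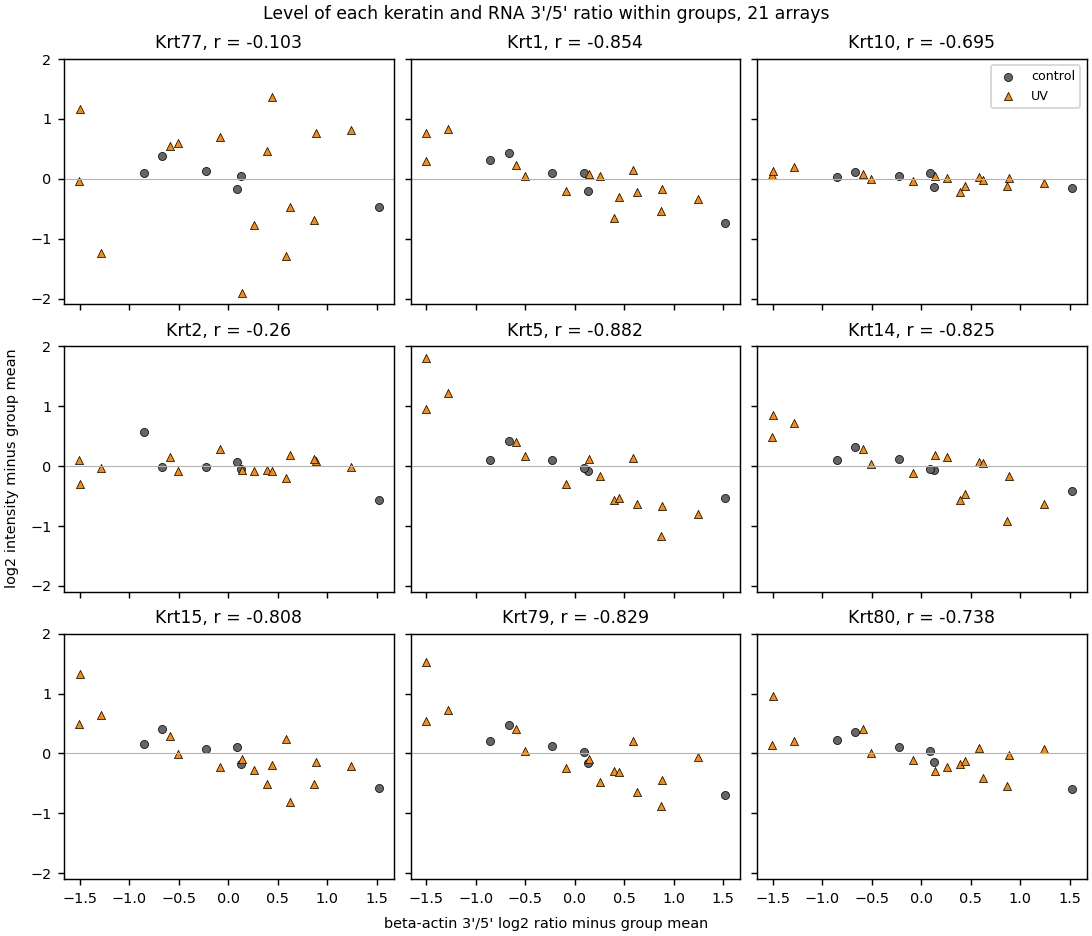
Log2 intensity of each keratin minus its group mean (y axis) against the log2 ratio of 3′ to 5′ beta-actin probe sets minus its group mean (x axis) on 21 arrays, control arrays as grey circles and UV arrays as orange triangles, with Pearson r above each panel. 7 panels fall from left to right, with r of −0.882 for Krt5, and those of Krt77 (−0.103) and Krt2 (−0.26) do not show such a slope.

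Krt1, Krt77 and Krt2 are neighbours in the type II keratin cluster of chromosome 15, whose order was taken from the RefSeq annotation of GRCm38.p6. The measured genes run from Krt5 through Krt71, Krt72, Krt73, Krt2, Krt1 and Krt77 to Krt76, Krt4 and Krt79. At UV_week8 Krt1 (−0.08) thus stood between Krt2 (−0.67) and Krt77 (−6.00), and of 24 measured keratins of chromosome 15 Krt77 had the lowest log2 fold change. Of the 18 keratins of chromosome 15 other than the genes described here 10 were lower and 2 higher, and of 21 on chromosome 11 11 were lower and 1 higher, beside 6.73% lower and 5.39% higher of all probe sets. Many of these are keratins of the hair and its inner sheath, such as Krt86 (−4.39, adjusted p = 0.00044) and Krt33a (−5.06, adjusted p = 0.00684).

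**Figure D5:**
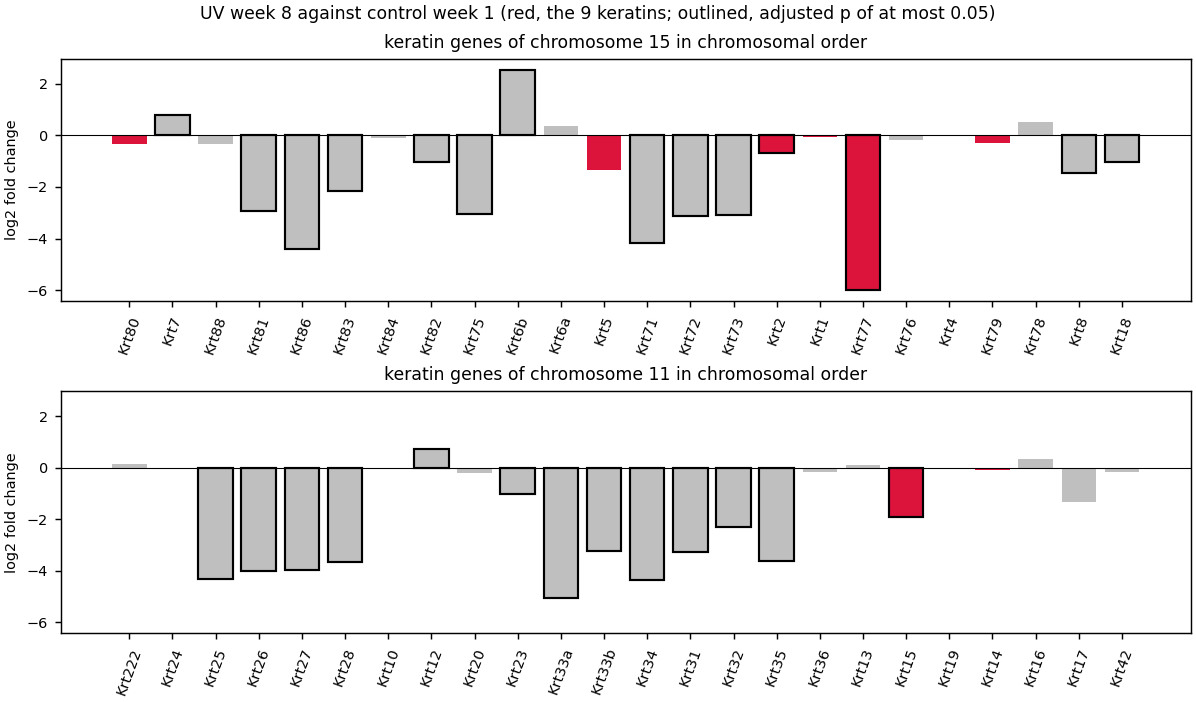
Log2 fold change at UV_week8 against control_week1 (y axis) of the 24 measured keratin genes of chromosome 15 and the 24 of chromosome 11 in their order on the chromosome (x axis, not to scale), with the 9 genes in red and an outline where the adjusted p was at most 0.05. Krt77 at −6.00 stands next to Krt1 at −0.08, and the grey bars below −2 are hair follicle keratins.

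Because hair keratins and Krt77 were both low in late UV skin, their time courses were set side by side. The summed level of 12 inner root sheath and hair shaft markers was 15.02 to 15.65 on the log2 scale at control_week1 and 13.59 to 14.47 at control_week8. It was 14.85 to 15.09 at UV_week1, 12.83 to 14.47 at UV_week2 and 9.26 to 12.96 at UV_week4. At UV_week6 it was 12.68 to 13.72, and at UV_week8 9.57 to 12.85. The group mean of Krt77 was 12.6 at control_week1, 13.1 at control_week8, 10.5 at UV_week1, 8.29 at UV_week2 and 9.04 at UV_week4. It was 6.32 at UV_week6 and 6.56 at UV_week8, which the fit did not separate. By group mean UV_week6 was lowest for Krt77 and UV_week4 for the hair markers, whose ranges at UV_week4 and UV_week8 overlapped. Of the 12 hair markers 12 were lower at UV_week4, 8 at UV_week6 and 11 at UV_week8 against control_week1, and 1 at control_week8. Of all probe sets 0.772%, 6.3%, 6.73% and 0.0296% were lower in these comparisons. None of the markers was at 0, and their part in the keratin values was not tested. Other markers also moved at UV_week8 against control_week1, beside 6.73% lower and 5.39% higher of all probe sets. Lower were 3 of 7 of fibroblasts, 5 of 6 of adipocytes, 7 of 8 of skeletal muscle, 2 of 6 of endothelium and 1 of 8 of leukocytes. Of the sebaceous gland 1 of 5 was higher. Against control_week8, beside 4.3% lower and 2.56% higher of all probe sets, the counts lower in the same order were 2, 1, 5, 1 and 1. Of the sebaceous gland markers 0 were higher there, and of the 12 hair markers 6 were lower.

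Genes whose pattern over the 21 arrays was most like that of Krt77 were sought among 1686 genes whose group means spanned at least 1 log2 unit. The 5 highest were Sema3d, a secreted guidance factor (r = 0.958), Adh6a, an alcohol dehydrogenase (0.944), Tesc, a calcium-binding protein (0.938), Clca3a2, of the chloride channel accessory family (0.937), and Cdh4, a cadherin (0.922). Within groups the same 5 correlated with Krt77 at 0.568 to 0.790. For the other members the gene most like each was Calm4 for Krt1 (0.960), Alox12b for Krt10 (0.886), Calcb for Krt2 (0.862), Rnf167 for Krt5 (0.987), Rab24 for Krt14 (0.945), Msl1 for Krt15 (0.982), Slc46a2 for Krt79 (0.972) and Baiap2l1 for Krt80 (0.949). These points share arrays, groups and the degradation ratio described above, and the correlations are given as a description.

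Around the filaments, other genes were counted from lists. Of 4 keratins known from wounded and hyperproliferative epidermis 1 was higher at UV_week8 against control_week1, beside 5.39% of all probe sets, Krt6b (2.53, SE 0.52, adjusted p = 0.00609), while Krt6a (0.37, adjusted p = 0.584), Krt16 (0.34, 0.789) and Krt17 (−1.34, 0.0764) did not pass. Of 12 other epithelial keratins 3 were lower and 2 higher, beside 6.73% and 5.39%. Krt8 (−1.46, adjusted p = 0.0151) and its partner Krt18 (−1.04, 0.0325), the pair of simple epithelia, fell, as did Krt23 (−1.03, 0.0167), and Krt7, of glandular epithelia, rose (0.79, 0.0356). Group means at control_week1, control_week8 and UV_week8 were 7.70, 6.75 and 6.24 for Krt8 and 6.11, 5.41 and 5.07 for Krt18. For Krt23 they were 9.38, 9.44 and 8.36, and for Krt7 4.95, 5.32 and 5.74. Against control_week8 1 of the 12 was lower and 1 higher, beside 4.3% and 2.56% of all probe sets. A list of filament linkers held genes of desmosomes and hemidesmosomes and others, such as Eppk1. Of its 11 measured genes none passed at UV_week8 against control_week1, beside 6.73% lower and 5.39% higher of all probe sets. The nearest was Dst, which anchors basal filaments (−0.49, adjusted p = 0.0535). Against control_week8 1 of 11 was lower, beside 4.3% of all probe sets, and this was Eppk1, epiplakin, named after its value was seen (−0.84, adjusted p = 0.048). The medians at UV_week8 were 0.36 for the hyperproliferation keratins, −0.05 for the other keratins and −0.32 for the linkers, beside 0.09 for all probe sets.

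Of 25 measured transcription regulators of epidermal keratin genes 7 were lower and 1 higher at UV_week8 against control_week1. The median was −0.51, and 6.73% of all probe sets were lower and 5.39% higher. Dlx3 (−1.27, SE 0.19, adjusted p = 0.00095) and Msx2 (−1.34, SE 0.24, adjusted p = 0.00263), homeobox factors of epidermis and hair follicle, fell, and so did Klf4, a factor of late differentiation and the barrier (−1.61, SE 0.51, adjusted p = 0.0475). Gata3, a factor of epidermis and inner root sheath, was at −1.39 (adjusted p = 0.0677). The group means at control_week1, control_week8 and UV_week8 were 8.96, 8.09 and 7.69 for Dlx3 and 7.38, 6.50 and 6.03 for Msx2. For Klf4 they were 11.80, 12.05 and 10.19, and for Gata3 7.99, 8.17 and 6.60. Against control_week8 5 of the 25 were lower and 0 higher, beside 4.3% lower and 2.56% higher of all probe sets. At UV_week1 and UV_week2 none of the 25 passed, beside 0.0123% and 0.0296% of all probe sets lower.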

How the data were processed

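Skin RNA of 21 mice was measured on Affymetrix mouse whole-genome arrays. The authors deposited 1 intensity per probe set and array, not log transformed and already normalized. The Methods name Expression Console with a Microarray Suite 5 preprocessor, while the submitters' notes name RMA. Most probes lie near the 3′ end of transcripts. The Methods speak of 6 groups, the labels give 7, and the labels were used. The labels make each array a separate sample, and its p-values measure the spread between these arrays, whose number limits the precision.

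A floor of 1 was set and log2 taken. Control probe sets (64) and those under the 20th percentile on every array were removed, which left 40540 (32317 with 1 symbol, 853 with several, 7370 with none). Group means were estimated from the 21 arrays together (limma 3.58.1, R 4.3.3, lmFit and eBayes, 14 residual degrees of freedom), with Benjamini-Hochberg correction across the 40540, 0.05 as threshold and no minimum change. The fit was tested on simulated data. Pair differences and correlations were computed in Python 3.11.15 with scipy 1.17.1, the latter with 1e+05 permutations within groups. Where a gene had several probe sets, the brightest on average stood for it.

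The keratins and all lists were chosen with earlier results of these data known. Up to 4 genes a list were named by size of change at UV_week8 against control_week1, and like genes by rank of correlation. Alternatives were quantile normalization, an offset of 16, no filter, a 2-fold minimum, the compared groups alone, both controls as baseline, the beta-actin or Gapdh ratio as covariate, no arrays of high ratio, the mean of all probe sets of a gene, and leaving out each array.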

Additional observations from a re-analysis of the deposited data

How the results depend on the processing

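No paired analysis was possible because no array number occurs in more than 1 group. Of 1089 gene values under other settings than leaving out an array 1063 kept their side of the threshold, 14 lost and 12 gained it, and none that passed turned its direction. The count of keratins lower at UV_week2 was 0 in the fit to the compared groups alone and 2 without the arrays of high ratio or with both controls as baseline. At UV_week4 it was 3 and 2 under the last 2 of these settings. The fit to the compared groups alone gave 1 at UV_week8 against either control. With the Gapdh ratio as covariate it was 6 at UV_week8 against control_week8 and 5 over the mean of UV groups, where a 2-fold minimum left 1.

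Leaving out each array gave counts lower of 0 to 1 at UV_week2, 0 to 2 at UV_week4, 1 to 3 at UV_week6, 1 to 5 at UV_week8 (5 without array 551), 2 to 6 against control_week8 and 2 to 6 over the mean (6 without array 551 in both), and from UV_week1 to UV_week2 0 to 1 lower and 0 to 2 higher, the highest without array 116. All other counts kept their value or stayed within 1.5 times.

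Without the arrays of high ratio, with 2 late arrays left, the late shifts were −6.29 (Krt77 minus Krt1), −5.99 (Krt77 minus Krt10), −1.66 (Krt2 minus Krt1), −0.32 (Krt5 minus Krt14), −1.31 (Krt15 minus Krt14) and −1.60 (suprabasal minus basal), with no call left. The early shifts of Krt79 minus Krt80 (0.43) and suprabasal minus basal (−1.22) then passed, the latter also after quantile normalization (−0.89). With the offset of 16 the shift of Krt2 minus Krt1 was −0.41 late and −0.52 early and that of suprabasal minus basal −0.64 late, none passing. Leaving out each array gave suprabasal minus basal −0.97 to −0.68 late and −1.01 to −0.69 early, Krt2 minus Krt1 −1.24 to −0.94 early, and Krt5 minus Krt14 −0.34 to −0.21 early, with calls changed in some. Of the settings added after the data were seen, leaving Krt77 out of the suprabasal mean turned the late shift of suprabasal minus basal to 0.65. Reading Krt14 at its second brightest probe set gave −0.73 for it and −0.46 for early Krt15 minus Krt14, and at its dimmest −0.68 and, for late Krt5 minus Krt14, −0.54, none passing. The other shifts kept their side, and all relations with the beta-actin ratio did. The cause of these changes was not tested, except that fewer arrays bound the exact p.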

Other observations

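Cornified layer genes were counted beside the keratins as a further readout of differentiation. Of 14 measured genes none passed at UV_week8 against control_week1, beside 6.73% lower and 5.39% higher of all probe sets, and their median log2 fold change was −0.28. The largest difference was that of Cnfn, cornifelin (−1.09, SE 0.67, adjusted p = 0.266), followed by Dsg1a, a desmosomal cadherin of the upper layers (−0.84, adjusted p = 0.174), Lor, loricrin, the main envelope protein (−0.58, adjusted p = 0.165), and Calm4, a calcium-binding protein of differentiated keratinocytes (−0.55, adjusted p = 0.58). Against control_week8 1 of 14 was higher, beside 2.56% of all probe sets, and this was Tgm3, a transglutaminase of the cornified envelope, named after its value was seen (0.87, SE 0.20, adjusted p = 0.0188). Calm4 was also the gene most like Krt1 over the 21 arrays.

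Of 9 genes by which basal cells adhere none passed at UV_week8 against control_week1, beside 6.73% lower and 5.39% higher of all probe sets. With 9 genes such a count is near these shares. Their median was −0.39, beside 0.09 for all probe sets. The largest differences were those of Itgb1, an integrin subunit (−1.63, adjusted p = 0.1), and Col17a1, a collagen of hemidesmosomes (−0.81, adjusted p = 0.172). Against control_week8, 1 of 9 was lower, beside 4.3% of all probe sets. Of the 8 keratinocyte markers 1 was lower at UV_week8 against control_week1, beside 6.73% of all probe sets. This was Dsc3, a desmosomal cadherin (−0.84, SE 0.27, adjusted p = 0.0493), and Cdh1, E-cadherin, did not pass (−0.17, adjusted p = 0.48). Against control_week8 0 of the 8 were lower.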
